A study of Mus musculus with 10 samples.

Results

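Pax5, Ebf1, Pou2af1 and Ikzf1 are transcription factor genes of the B lymphocyte lineage, and they were followed here as a group of 4 genes among the 597 named on a cDNA membrane. They were found by the gene names printed in the spot files: BSAP for Pax5, early B cell factor for Ebf1, OBF-1 for Pou2af1 and Ikaros for Ikzf1. Each had 2 neighbouring spots on every array, and all 4 lay in the same block of the membrane. The samples were splenocytes, a mixture of all spleen cells, taken from FVB mice aged 6 weeks. Arrays 1 to 7 of the transgenic group came from animals carrying CD22DE12, and arrays 1 to 3 of the wild-type group from FVB animals without it. CD22DE12 is known as a form of the B cell co-receptor CD22 that lacks an exon. The labels do not name the promoter that drives the transgene. Nor do they say whether each array stands for its own mouse, so the p-values reflect the spread between arrays, which may be technical.

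In early B cell development, Ikaros is a zinc-finger protein of lymphoid progenitors, and EBF1 and PAX5 switch on B cell genes in turn. PAX5 then holds the B cell identity while it represses genes of other lineages. Pou2af1 encodes OCA-B, a coactivator that does not bind DNA alone but joins the octamer-binding proteins OCT1 and OCT2, and it is known for its part in germinal centre responses. Ikaros is also made in T cells and other blood cells, whereas Pax5, Ebf1 and Pou2af1 are known mainly from B cells.

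The start regions of these genes were searched for the letters that these factors are known to recognise. RefSeq windows on GRCm38.p6 reach from 250 bases before to 50 bases after a start, and 6 of them belong to the 4 genes: 2 for Ikzf1, 2 for Ebf1 and 1 each for Pax5 and Pou2af1. The 4 strings searched on both strands were ATGCAAAT (the octamer that OCA-B is recruited to), TGCAAAT (which every octamer contains), TGGGAA (the core of Ikaros sites) and the EBF palindrome (TCCC and GGGA with any 2 bases between, bound by EBF1). Among all 32851 windows, the octamer stood in 1.74%, TGCAAAT in 4.02%, TGGGAA in 25.6% and the EBF palindrome in 0.904%. The octamer and the palindrome stood in 0 of the 6 windows. The 2 windows with a match are shown because they hold a string tied to OCA-B or Ikaros, with the match in capitals; both lie on the plus strand and are written 5′ to 3′. The Pou2af1 window (chr9:51213440-51213739) has TGCAAAT 224 bases before the start, and the Ebf1 window at the second of its 2 starts (chr11:44619978-44620277) has TGGGAA on the opposite strand, read as TTCCCA, 201 bases before the start.
Pou2af1: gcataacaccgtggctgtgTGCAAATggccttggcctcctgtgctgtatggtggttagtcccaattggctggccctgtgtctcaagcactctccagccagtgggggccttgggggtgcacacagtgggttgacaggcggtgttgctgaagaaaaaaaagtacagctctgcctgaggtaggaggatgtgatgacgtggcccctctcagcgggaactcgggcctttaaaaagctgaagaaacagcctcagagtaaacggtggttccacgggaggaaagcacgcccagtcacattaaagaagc
Ebf1: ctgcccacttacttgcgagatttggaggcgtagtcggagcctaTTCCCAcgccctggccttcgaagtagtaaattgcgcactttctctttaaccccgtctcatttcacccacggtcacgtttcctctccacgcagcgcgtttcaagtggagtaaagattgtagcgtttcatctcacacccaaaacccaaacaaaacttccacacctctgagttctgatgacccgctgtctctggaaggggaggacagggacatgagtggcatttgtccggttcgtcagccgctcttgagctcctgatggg
A match is a string of letters in these windows, and binding was not measured.

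Each array reported 463 to 550 of the 597 genes above background, taken as code 0 on either spot. All 4 genes met this on all 10 arrays, as did 357 of the 597 genes. Transgenic replicates 6 and 7 had their images quantified later, in a second sitting with no wild-type array. Their median signals above background were 4.45 and 4.06 grey levels, and those of the remaining 8 arrays 13.8 to 18.7. Levels below are log2 grey levels after background correction with 50 added, quantile normalized, and averaged over the 2 spots; adding 50 makes differences smaller than the ratio of the signals. The B cell markers Cd22, Cd40 and Blk and the T cell marker Cd3d were above background on all 10 arrays, as were the myeloid markers Itgam and Cd14.

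Ikzf1, Pou2af1, Ebf1 and Pax5 all had lower mean levels in transgenic than in wild-type splenocytes, and none of the 4 differences passed the test over all genes. Of the 597 genes, 288 (48.2%) had a difference below 0. By limma with Benjamini-Hochberg adjustment, 0 of 597 genes (0%) passed an adjusted p of 0.05, and 43 (7.2%) had an unadjusted p under 0.05. Of these 43 genes, 29 (4.86% of all) were lower in the transgenic arrays, and Ikzf1 and Pou2af1 were among them. The median difference was -0.12 over the 4 genes and 0.002 over all genes. In RNA from whole spleen cells, fewer cells of a type and less RNA per cell cannot be told apart.

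Ikzf1 encodes Ikaros, the lymphoid zinc-finger protein. Its level was 7.04, 7.11, 7.09, 7.23, 7.12, 7.11 and 7.01 in transgenic replicates 1 to 7, against 7.29, 7.25 and 7.17 in wild-type replicates 1 to 3. Every transgenic array (7 of 7) was lower than the mean of wild type, and 6 were lower than its lowest array, with transgenic replicate 4 as the one that overlapped. The means were 7.10 ± 0.07 in transgenic (SD, n = 7) and 7.24 ± 0.06 in wild type (SD, n = 3). The difference was -0.13 (SE 0.046, 95% interval -0.24 to -0.03), with a limma p of 0.0143 and an adjusted p of 0.562. A two-sided exact permutation test found 2 of 120 splits with a difference as large (p = 0.0167), where the smallest p possible is 0.00833. Within the first sitting, 5 transgenic against 3 wild-type arrays gave -0.12, with an exact p of 0.0714 where 0.0179 is the smallest possible. With 1 background value per array in place of the local ring, the Ikzf1 difference was -0.20 (exact permutation p = 0.025).

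Pou2af1 encodes OCA-B, the octamer coactivator. Its level was 6.08, 6.08, 6.11, 6.26, 6.07, 6.12 and 6.17 in transgenic replicates 1 to 7, against 6.34, 6.18 and 6.28 in wild-type replicates 1 to 3. As for Ikzf1, 7 of 7 transgenic arrays were lower than the mean of wild type, 6 were lower than its lowest array, and transgenic replicate 4 was the highest of its group. The means were 6.13 ± 0.07 in transgenic (SD, n = 7) and 6.27 ± 0.08 in wild type (SD, n = 3). The difference was -0.14 (SE 0.0485, 95% interval -0.25 to -0.03), with a limma p of 0.0158, an adjusted p of 0.562 and an exact permutation p of 0.0167. Within the first sitting the difference was -0.15 (exact permutation p = 0.0536).

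Uncorrected, the Pou2af1 spots were brighter on most transgenic arrays, and so were the rings around them. The uncorrected spot signal of the transgenic arrays ran from 54.8 to 80.6 grey levels with a median of 74.9, and 4 of 7 arrays lay above all wild-type arrays, whose signals were 66.0, 73.3 and 61.9. The ring around these spots read 43.3 to 60.4 grey levels in transgenic arrays with a median of 47.1, against 34.4, 43.7 and 33.4 in wild type, and 5 of 7 transgenic rings were brighter than every wild-type ring. The median ring of the whole array read 38.1 to 54.6 grey levels in transgenic, against 31.85, 39.96 and 39.2 in wild type. Over all arrays the Pou2af1 ring was 0.85 to 1.47 times the array's median ring (median 1.08). On transgenic replicate 5 the Pou2af1 ring read 56.0 grey levels, against an array median of 38.1. The signal above the Pou2af1 ring was 8.23 to 37.3 grey levels in transgenic arrays (median 24.0), against 31.7, 29.7 and 28.5 in wild type. With 1 background value per array, Pou2af1 averaged 6.38 ± 0.13 in transgenic (SD, n = 7) and 6.44 ± 0.12 in wild type (SD, n = 3). That difference was -0.06 (95% interval -0.24 to 0.13), and 63 of 120 splits were as large (exact permutation p = 0.525).

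Ebf1 encodes the early B cell factor. Its level was 6.31, 6.21, 6.11, 6.29, 6.28, 6.09 and 6.28 in transgenic replicates 1 to 7, against 6.26, 6.36 and 6.37 in wild-type replicates 1 to 3. Here 7 of 7 transgenic arrays were below the wild-type mean, but only 3 lay below wild-type replicate 1, the lowest of its group. The means were 6.23 ± 0.09 in transgenic (SD, n = 7) and 6.33 ± 0.06 in wild type (SD, n = 3). The difference was -0.10 (SE 0.0559, 95% interval -0.23 to 0.02; limma p = 0.0955, adjusted p = 0.798), with an exact permutation p of 0.0917. With 1 background value per array the difference was -0.27 (95% interval -0.50 to -0.04, adjusted p = 0.658; exact permutation p = 0.0583). On that scale the signal of transgenic replicate 6, from the second sitting, minus the array's background value was -3.15 grey levels, and within the first sitting the difference was -0.20.

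Pax5 encodes BSAP, and its spots were among the brightest on the membrane. Its level was 6.92, 7.08, 6.81, 6.92, 7.27, 6.96 and 6.80 in transgenic replicates 1 to 7, against 7.02, 6.86 and 7.30 in wild-type replicates 1 to 3. The groups overlapped over most of their range, and 5 of 7 transgenic arrays were lower than the mean of wild type. The means were 6.96 ± 0.16 in transgenic (SD, n = 7) and 7.06 ± 0.23 in wild type (SD, n = 3). The difference was -0.10 (SE 0.111, 95% interval -0.34 to 0.15; limma p = 0.407, adjusted p = 0.972), with an exact permutation p of 0.475. Its direction rested on wild-type replicate 3: without that array the difference was 0.02, and without wild-type replicate 2 it was -0.20. The left spot alone gave 0.006 and the right spot alone -0.20.

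**Figure D1:**
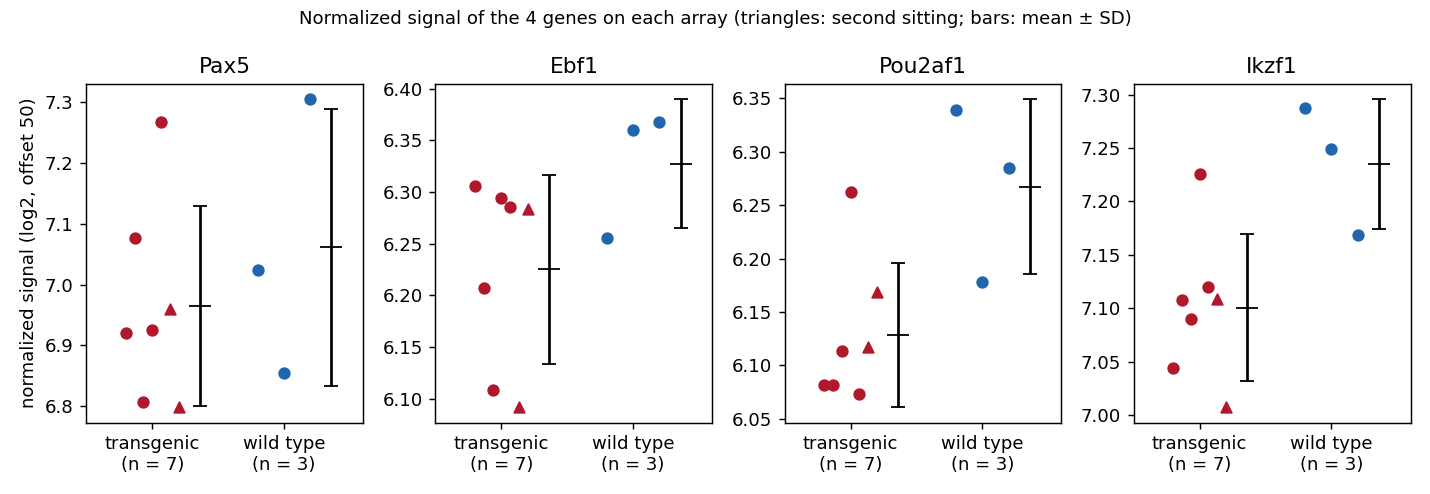
Normalized signal (log2 grey level with 50 added) of each gene on each array, transgenic in red and wild type in blue, with triangles for the second sitting and bars for the mean ± SD. For the transgenic arrays, 7 of 7 lie under the mean of wild type for Ebf1, Pou2af1 and Ikzf1, and the Pax5 groups overlap; each panel has its own vertical scale.

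None of the 4 genes had groups that did not overlap, a pattern that 10 of the 597 genes (1.68%) showed, 7 of them (1.17%) with the transgenic arrays lower. Ikzf1, Pou2af1 and Ebf1 kept a difference below 0 in 27 of 27 alternative settings, and Pax5 in 24 of 26. The settings share most of their arrays and spots. The size varied more than the sign: with no offset added, the differences were -0.46 for Pou2af1, -0.31 for Ebf1, -0.21 for Ikzf1 and -0.17 for Pax5, with no adjusted p under 0.809 among them. Centred on the housekeeping genes, where the median of all genes was 0.06, they were -0.06 for Pou2af1, -0.035 for Ebf1, -0.06 for Ikzf1 and -0.013 for Pax5. Ikzf1 and Pou2af1 did not keep an unadjusted limma p under 0.05 there (0.547 and 0.514), nor with median centring (0.174 and 0.0816). Both also lost it with no offset added, with plain background subtraction and without wild-type replicate 1. The same held within the first sitting with 1 background value per array. Pou2af1 but not Ikzf1 lost it with cyclic loess, with no background correction and with 1 background value per array. Pou2af1 alone also lost it without wild-type replicate 3 and with the right spot alone.

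**Figure D2:**
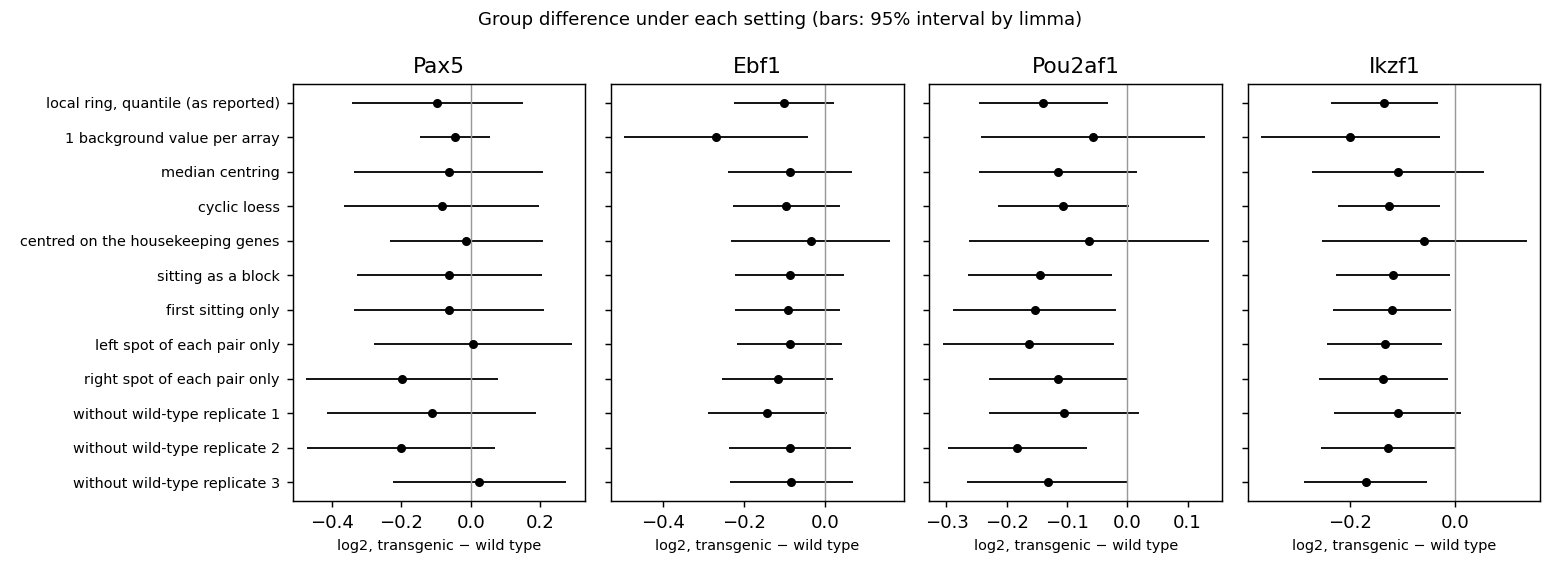
Difference between transgenic and wild type (log2, horizontal axis) of each gene under 12 settings (rows), with 95% intervals by limma. Points for Ebf1, Pou2af1 and Ikzf1 lie left of 0 in every row drawn, the Pou2af1 point moves to -0.06 with 1 background value per array, and Pax5 lies right of 0 with the left spot alone and without wild-type replicate 3.

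The Pax5 spots were bright, and so was the membrane around them. The 2 spots averaged 209 to 239 grey levels in transgenic arrays (median 224), against 233.4, 234.2 and 236.4 in wild type. These values were 3.44 to 19.9 grey levels below the brightest gene spot of the same transgenic array, and at most 7.75 below it in wild type. The ring around the Pax5 spots read 119 to 166 grey levels in transgenic arrays (median 142), against 155.0, 154.7 and 127.5 in wild type. Over all arrays this ring was 2.48 to 4.87 times the array's median ring (median 3.30), whereas the medians of this ratio were 1.58 for Ikzf1, 1.08 for Pou2af1 and 0.90 for Ebf1. Of 6 neighbouring spots, 3 had rings with higher ratios than the others: the median ratio was 1.36 and 1.35 for the Pax6 spots in the row below and 1.43 for the NFAT 1 spot beside it, against 1.11 for the Mph-1 spot on the other side and 1.0 for both the MRE-binding factor and Sox4 spots at the corners below. The Pax6 spots themselves had median signals of 59.7 and 60.8 grey levels.

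With 1 background value per array, Pax5 stood at 7.85, 7.94, 7.81, 7.88, 7.93, 7.86 and 7.89 in transgenic replicates 1 to 7, against 7.94, 7.92 and 7.93 in wild-type replicates 1 to 3. On this scale 5 of 7 transgenic arrays were below the lowest wild-type array and transgenic replicate 2 was above the highest. The means were 7.88 ± 0.04 in transgenic (SD, n = 7) and 7.93 ± 0.01 in wild type (SD, n = 3). The difference was -0.04 (95% interval -0.15 to 0.06, limma adjusted p = 0.895), and 16 of 120 splits were as large (exact permutation p = 0.133). After normalization the spread within the groups was thus smaller than with the local ring, as was the difference. On single arrays Pax5 ranked 3 to 5 in wild type and 1 to 9 in transgenic here, and quantile normalization sets a spot's value by its rank. Before normalization the SD of signal minus background was 17.8 grey levels in transgenic and 3.70 in wild type, against 26.2 and 17.3 with the local ring. Its mean was 178 in transgenic and 198 in wild type, against 81.0 and 88.9 with the local ring. In grey levels the group means thus lay further apart with 1 background value per array. The part of normalization in the smaller spread and the smaller difference was not tested. Spots this close to the brightest on the array leave little range upward, and the labels and headers do not say whether the image was linear there. Leaving out spots whose ring exceeded 100 grey levels removed all Pax5 spots, so that setting gave no Pax5 value.

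**Figure D3:**
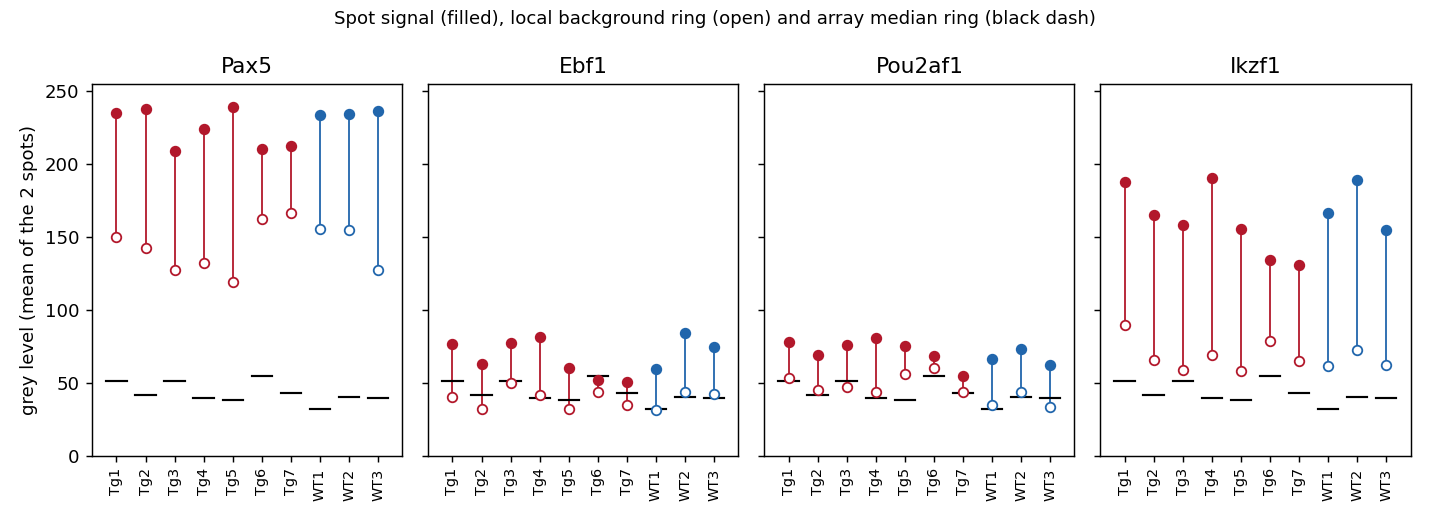
Mean grey level of the 2 spots (filled), of their local background rings (open) and of the array's median ring (black dash) for each gene on transgenic arrays (Tg, red) and wild-type arrays (WT, blue). The Pax5 rings lie far above the dash on all 10 arrays, and the Pou2af1 rings of 5 transgenic arrays lie above all 3 wild-type rings.

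Among the 597 genes, ordered by mean level in wild type with 1 as the brightest, Ikzf1 ranked 10, Pax5 ranked 21, Ebf1 ranked 119 and Pou2af1 ranked 136. Spot brightness also depends on the length and labelling of the fragment spotted, so these are ranks of spots and not of transcript amounts. Ikzf1 ranked 7 to 16 on single wild-type arrays, and Pax5 ranked 7 to 47. Ikzf1 was above Pax5 on 8 of 10 arrays. In wild type it was above on 2 of 3 arrays, by 0.17 ± 0.28 (SD, n = 3), so the wild-type order was within the spread. Pax5 stood above Ebf1 on all 10 arrays, by 0.73 ± 0.22 in wild type (SD, n = 3). Ebf1 and Pou2af1 were within their spread, with Ebf1 above Pou2af1 by 0.06 ± 0.13 in wild type (SD, n = 3) and on 7 of 10 arrays. In the transgenic group the ranks were 19 for Ikzf1, 30 for Pax5, 152 for Ebf1 and 181 for Pou2af1.

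The choice of background reversed the top of this order. With 1 background value per array, Pax5 ranked 4 in wild type and Ikzf1 ranked 18, and Pax5 was above Ikzf1 on all 10 arrays, by 0.32 ± 0.11 in wild type (SD, n = 3). Ebf1 then ranked 145 and Pou2af1 ranked 166 in wild type. Ebf1 was above Pou2af1 on 4 of 10 arrays on that scale.

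**Figure D4:**
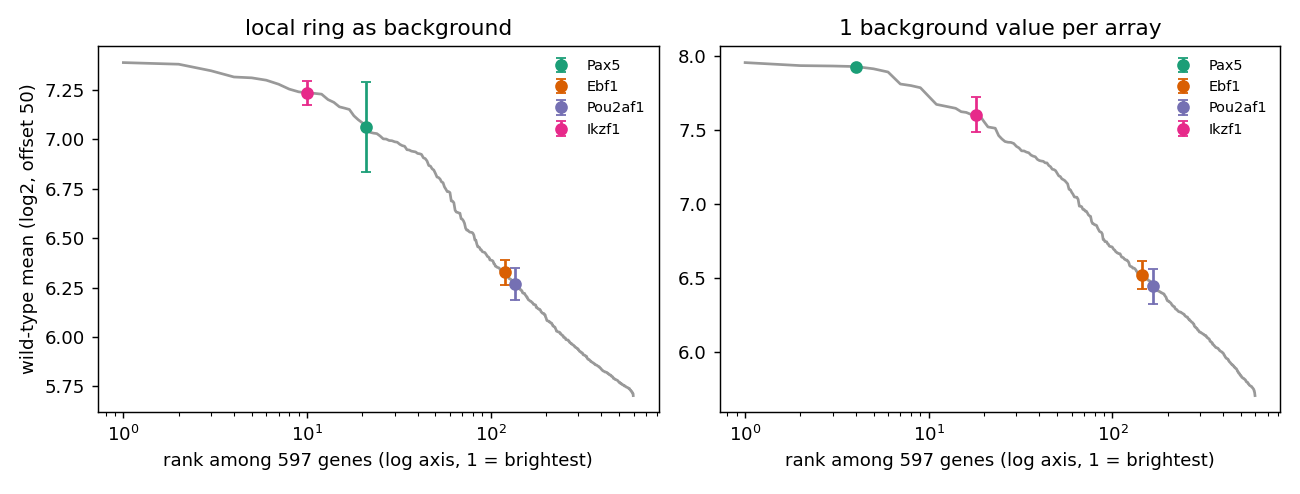
Mean wild-type level of all 597 genes (log2, grey line) against rank on a log axis, with the 4 genes marked and their SD over 3 arrays, for local-ring background (left) and 1 background value per array (right). Pax5 moves to rank 4 on the right, against rank 21 on the left; Ikzf1 moves to 18, against 10.

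Covariation across the 10 arrays was compared in all 6 pairs of the 4 genes. With the local ring and quantile normalization the highest r was that of Pou2af1 and Ikzf1, with a Pearson r of 0.71 (permutation p = 0.0221, adjusted over the 6 pairs 0.133) and a Spearman rho of 0.64 (permutation p = 0.0545, adjusted 0.327). Wild-type replicates 1 and 3 were the arrays farthest from the Pou2af1 median, and without them r was 0.56 (exact permutation p = 0.145, n = 8). With the group means taken out r was 0.41 (permutation p = 0.236) and rho 0.10 (permutation p = 0.786). Within the 7 transgenic arrays r was 0.52 (exact permutation p = 0.234) and rho 0.07 (exact permutation p = 0.906). Within the first sitting r was 0.82 (exact permutation p = 0.0203, adjusted 0.122, n = 8) and rho 0.74 (exact permutation p = 0.0458, adjusted 0.275). For all 10 arrays r was 0.638 with 1 background value per array, against 0.643 for Pax5 with Ikzf1, and with median centring it was 0.68, against 0.81 for Ebf1 with Ikzf1, so the order of the pairs depended on these settings. No value for this pair passed the adjustment, and the arrays share their membrane layout and normalization.

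With the local ring and quantile normalization, the other 5 pairs had r between 0.12 and 0.39. Pax5 had an r of 0.30 with Ebf1 (permutation p = 0.397, rho 0.15), 0.19 with Ikzf1 (p = 0.601, rho 0.43) and 0.12 with Pou2af1 (p = 0.738, rho 0.04) by permutation over 10 arrays. Ebf1 had an r of 0.39 with Pou2af1 (permutation p = 0.267, rho 0.25) and 0.30 with Ikzf1 (permutation p = 0.407, rho 0.30). The pairs with Ikzf1 had higher r with 1 background value per array, at 0.64 for Pax5 with Ikzf1 (permutation p = 0.0448, adjusted over the 6 pairs 0.123) and 0.61 for Ebf1 with Ikzf1 (permutation p = 0.0613, adjusted 0.123, rho 0.73). On that scale r was 0.53 for Pax5 with Pou2af1 (permutation p = 0.111, adjusted 0.167), 0.36 for Pax5 with Ebf1 and 0.29 for Ebf1 with Pou2af1. With the local ring, and adjusted over the 6 pairs, the p of r for these 5 pairs ran from 0.610 to 0.738. Without the 2 arrays farthest from the median of the first-named gene, r was -0.11 for Pax5 with Ebf1 (exact permutation p = 0.789), 0.13 for Pax5 with Pou2af1 (p = 0.767) and 0.34 for Pax5 with Ikzf1 (p = 0.400). It was 0.26 for Ebf1 with Pou2af1 (exact permutation p = 0.526) and 0.19 for Ebf1 with Ikzf1 (p = 0.647). Within the first sitting these 5 pairs had r of 0.38 for Pax5 with Ebf1, 0.11 for Pax5 with Pou2af1, -0.03 for Pax5 with Ikzf1, 0.34 for Ebf1 with Pou2af1 and 0.38 for Ebf1 with Ikzf1. Ebf1 and Ikzf1 passed the adjustment by r in 1 setting, median centring in place of quantile normalization. There r was 0.81 (permutation p adjusted over the 6 pairs 0.0301), but rho was 0.73 and did not pass (permutation p adjusted 0.120).

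**Figure D5:**
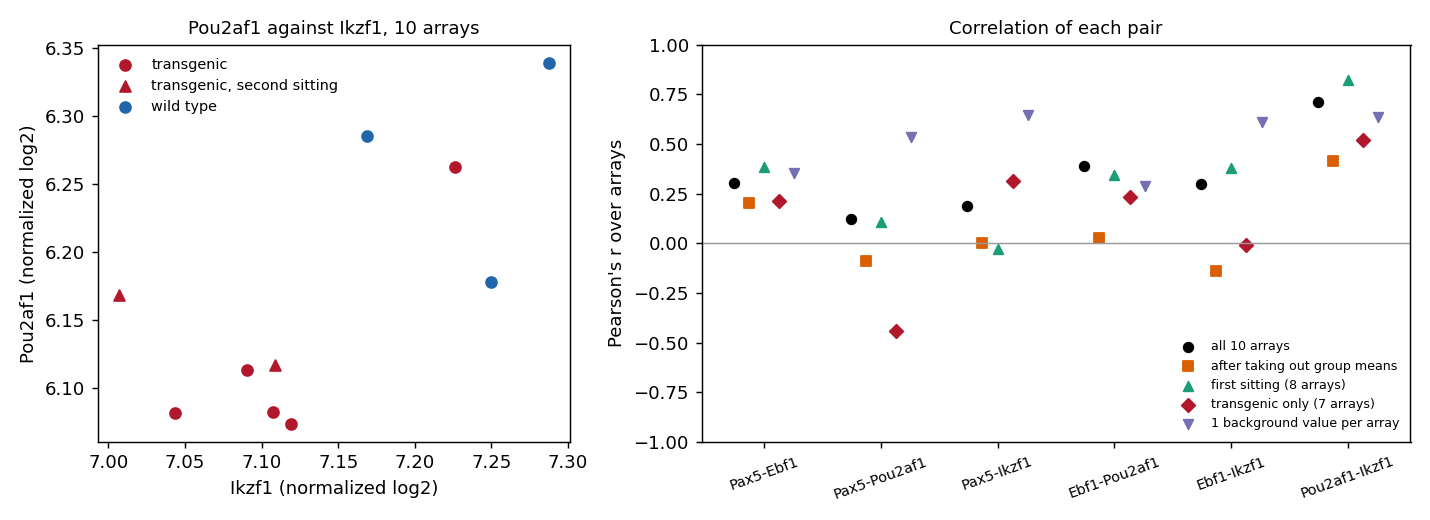
Left, the level of Pou2af1 against that of Ikzf1 (both log2) on each array, red for transgenic (triangles for the second sitting) and blue for wild type; right, Pearson's r of each pair under 5 settings. Pou2af1 with Ikzf1 has the highest r over all 10 arrays with the local ring (0.71) and 0.41 with group means taken out; under 1 background value per array it has 0.638, against 0.643 for Pax5 with Ikzf1.

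The genes most like each factor were taken as the 3 with the highest Pearson r over the 10 arrays among the 357 genes above background on all of them. They are a description, since the highest of many correlations over 10 arrays are high by selection. For Pou2af1 they were the Cek 5 receptor tyrosine kinase ligand (r = 0.83), Cd40, a receptor by which T cells activate B cells (r = 0.82, rho = 0.93), and Cd2 (r = 0.81). Cd2 is an adhesion molecule counted here among the T cell genes. For Ikzf1 they were the tumour suppressor Apc (r = 0.85), the ERA-1 protein (r = 0.79) and the NF-kappa-B subunit RelA (r = 0.77). For Pax5 they were transcription termination factor 1 (r = 0.78), the Kruppel-like factor LKLF (r = 0.77) and the receptor ERBB-3 (r = 0.73). For Ebf1 they were an activin type I receptor (r = 0.93), a phospholipase A2 (r = 0.86) and the inhibitory receptor PD-1 (r = 0.81). With the group means taken out, r was 0.65, 0.64 and 0.78 for the Pou2af1 genes in the order given. It was 0.67, 0.49 and 0.77 for the Ikzf1 genes, 0.71 to 0.79 for the Pax5 genes and 0.77 to 0.91 for the Ebf1 genes. Ikzf1 came 9th in the order for Pou2af1, and Pou2af1 came 10th in the order for Ikzf1. The closest of the group to Pax5 was Ebf1, 52nd in its order.

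Other genes of the B lineage gave 0 that passed the adjusted threshold. Of 4 B cell surface and signalling genes, 4 were lower in transgenic and 0 higher, with a median difference of -0.10. Over all genes, 288 of 597 (48.2%) were lower. Cd22, the co-receptor, averaged 6.66 ± 0.13 in transgenic (SD, n = 7) and 6.90 ± 0.16 in wild type (SD, n = 3), a difference of -0.24 (limma adjusted p = 0.562). CD22DE12 is itself a form of CD22, and whether the Cd22 spots also register transgene RNA was not tested. Cd40 differed by -0.13, the kinase Blk by -0.07 and the kinase Syk by -0.003. Leaving out each array in turn moved Blk between -0.13 and 0.005 and Syk between -0.03 and 0.03, so their signs were not stable. Cd22 and Cd40 stayed below 0. The mean level of these 4 genes ran from 6.53 to 6.79 over transgenic arrays and from 6.69 to 6.85 over wild-type arrays. The mean level of the 4 transcription factor genes ran from 6.53 to 6.69 in transgenic and from 6.66 to 6.78 in wild type. The part of B cell number in the differences was not tested.

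Of 7 early B precursor entries, 5 were lower and 2 higher in transgenic, with a median difference of -0.01. The interleukin 7 receptor gene Il7r differed by -0.08, and the recombinase genes Rag1 and Rag2 both by 0.03. A second entry whose printed name holds RAG1, together with RGA and a stromal cell protein, differed by -0.10 and had the smallest p of this list (limma adjusted p = 0.947). The 2 entries with RAG1 in their names thus differed in sign, and which transcript the second one measures was not settled. Rag2 was above background on 5 of 10 arrays. Of 6 other lymphoid transcription factors, 3 were lower and 3 higher. Myb, at -0.01, was counted both here and among the early B precursor entries. Satb1, a chromatin organiser of thymocytes, averaged 6.98 ± 0.09 in transgenic (SD, n = 7) and 7.15 ± 0.04 in wild type (SD, n = 3), with groups that did not overlap (difference -0.17, limma adjusted p = 0.562). Gata3, a T cell regulator, differed by 0.06, Rel by 0.01, Elf1 by 0.01 and Tcf4 by -0.008.

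Relatives of these factors from the Pax and POU families were also on the membrane. Of the 5 measured, 0 were above background on all 10 arrays, Pou4f2 and Pax8 were above it on 8 arrays each, Pou3f1 on 5, Pou5f1 on 4 and Pax6 on 3. All 5 had differences above 0, the largest 0.08. Pou4f2 averaged 6.04 ± 0.12 in transgenic (SD, n = 7) and 5.96 ± 0.06 in wild type (SD, n = 3). Pax6 averaged 5.80 ± 0.12 in transgenic (SD, n = 7) and 5.74 ± 0.04 in wild type (SD, n = 3). Pou5f1 averaged 5.74 ± 0.01 in transgenic (SD, n = 7) and 5.72 ± 0.01 in wild type (SD, n = 3).

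Of the markers of other spleen cells, 0 passed the adjusted threshold. Of 6 T cell genes, 4 were lower and 2 higher (median difference -0.04), and their mean level was 6.05 to 6.18 in transgenic and 6.14 to 6.17 in wild type. Among them Lck differed by -0.18, Cd2 by -0.14 and Cd4 by 0.07, against -0.14 to -0.10 for the 4 factors. Of 5 myeloid genes, 1 was lower and 4 higher (median 0.11), with a mean level of 6.52 to 6.75 in transgenic and 6.46 to 6.58 in wild type. The erythroid genes Klf1 and Epor differed by 0.20 and 0.15, with a mean level of 6.05 to 6.99 in transgenic and 6.15 to 6.50 in wild type. Of 3 endothelial genes, 2 were lower and 1 higher, with a mean level of 5.97 to 6.18 in transgenic and 6.12 to 6.20 in wild type. Pecam1 had the largest of these differences, at -0.14. The part of these cells in the values of the 4 factors was not tested.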

How the data were processed

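Splenocyte RNA was copied into 32P-labelled cDNA and hybridised to nylon cDNA arrays, per the labels' protocols. The deposited spot files hold an intensity per spot, not normalized: per the file headers, the mean grey level of the spot and of the local ring around it, from an inverted image with automatic segmentation. The code of each spot (0 or 2) was used to call genes above background. The labels and headers give neither its meaning nor the exposure or linearity. The code did not follow the signal above the ring alone. The right Pax5 spot of transgenic replicate 7 had code 2 at 35.5 grey levels above its ring. The right Ebf1 spot of transgenic replicate 6 had code 0 at 7.42 above its ring. A table of processed values was not used here.

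Background was corrected with normexp (offset 50, all spots), quantile normalization followed over spots with a gene name, and duplicate spots were averaged on the log2 scale. Transgenic minus wild type was fitted for 597 genes in limma 3.58.1 (R 4.3.3; lmFit, eBayes, two-sided), Benjamini-Hochberg adjusted, with no filter. Single genes were also compared by exact permutation over 120 splits. Correlations used 100000 resamples for 10 arrays and exact pairings for fewer (scipy 1.17.1). The steps were tested on simulated data with changes larger than the differences of the 4 genes, so that test does not bear on differences of their size. The number of arrays limits the precision. Start-region sequences came from RefSeq (GRCm38.p6), where all 4 genes matched by symbol.

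The 4 genes, the gene lists and the tests were chosen with earlier results of these data known. The text names the 4 genes, the 3 genes most correlated with each, and up to 6 measured genes per list by smallest p, not all of which are given. Alternatives concerned normalization, background, spots, dim genes, array weights, sitting and single arrays. The left or right spot alone, the first sitting with 1 background value per array, and the count at an unadjusted p were added after seeing the data.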

Additional observations from a re-analysis of the deposited data

Results flagged for a closer look

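Among the 57 sets of transgenic values searched, 1 held an array far from the others by Dixon's criterion, where chance gives about 1 in 20, or 2.85. The endothelial receptor gene Kdr stood at 5.81 in that transgenic array, while the nearest of the other 6 was at 5.96 and the farthest at 6.05. The wild-type group of 3 was not searched.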

How the results depend on the processing

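No gene passed the adjusted threshold by limma in any of 27 alternatives; the genes at an unadjusted p under 0.05 numbered 24 with centring on the housekeeping genes, against 43. Leaving out each array in turn moved the Pax5 difference between -0.20 and 0.025 (0.025 without wild-type replicate 3), and the left spot alone gave 0.0057. Of the correlations, Pax5 with Pou2af1 was -0.090 with group means taken out and -0.44 within transgenic arrays (-0.19 to 0.40 leaving out each array, -0.19 without wild-type replicate 3). Pax5 with Ikzf1 was -0.00074 with group means taken out and -0.027 within the first sitting (-0.0088 to 0.34 leaving out each array, -0.0088 without transgenic replicate 7). Ebf1 with Ikzf1 was -0.14 with group means taken out, -0.0078 within transgenic arrays and 0.81 with median centring. Without background correction the wild-type ranks were 144 for Ebf1, 166 for Pou2af1 and 17 for Ikzf1; with 1 background value per array they were 145, 166 and 18. The cause of these changes was not tested. No paired analysis was possible because the replicate numbers only name the arrays in accession order. The sitting as a block and the first sitting alone both rest on first-sitting arrays. Low signal above background in transgenic replicates 6 and 7, and the ring around Pax5, limit what these values can resolve.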
